A study of Mus musculus with 10 samples.

Results

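The KLF genes encode transcription factors with zinc fingers that bind CACCC and GC-rich DNA, and 10 of them, Klf2, Klf3, Klf5, Klf6, Klf7, Klf9, Klf10, Klf12, Klf13 and Klf16, were described here across the path from mouse embryonic stem cells to blood progenitors. They were taken by name from the deposited stage-mean matrix, in which all 10 were among 15686 genes, and none of them was removed by the filter on low counts. The libraries were nuclear-enriched, rRNA-depleted RNA from the HM-1 ES cell line at 5 stages, with 2 libraries per stage. ES cells were kept undifferentiated with LIF on gelatinised plates. Hemangioblast cells (HB) were FLK1+ cells from embryoid bodies grown for 3 days in serum, and they were the source of the remaining stages after blast culture with VEGF, IL-6 and D4T conditioned media. These stages were separated by flow sorting into hemogenic endothelium 1 (HE1; KIT+, TIE2+, CD41-), hemogenic endothelium 2 (HE2; KIT+, TIE2+, CD41+) and hematopoietic progenitors (HP; KIT+, TIE2-, CD41+). All samples came from a single ES line, no animals were used, and no flow or shear device is named in the culture protocol. The study describes the libraries of a stage as biologically independent replicates, and the labels number them without naming the differentiation each came from.

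KLF proteins share a DNA-binding end made of zinc fingers and differ in the rest of the protein. KLF2, KLF5, KLF6 and KLF7 mostly activate transcription, KLF3 and KLF12 recruit the CtBP corepressors, and KLF9, KLF10, KLF13 and KLF16 recruit SIN3 with its histone deacetylases. KLF2 and KLF5 help to hold ES cells in the undifferentiated state, and in endothelium KLF2 is switched on by the shear of flowing blood through the kinases MEKK2, MEKK3, MEK5 and ERK5 and the MEF2 factors.

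Promoter windows from RefSeq (GRCm38.p6) were at hand for 7 of the 10 genes, Klf2, Klf3, Klf6, Klf7, Klf9, Klf12 and Klf13, and 4 are shown because they stand before genes with 4 different courses over the stages. The window before Klf2, which was high in ES, low in HB and intermediate in HE1, was chr8:72318812-72319061 on the plus strand. That before Klf6, highest in HE1, was chr13:5861239-5861488 (plus), and that before Klf9, highest in ES, was chr19:23140976-23141225 (plus). That before Klf13, with its highest mean in HE2 but overlapping HE1 and HP, was chr7:63938916-63939165 (minus). Each run is the 250 bases before the RefSeq start, which for Klf2 and Klf6 lies 29 and 7 bases inside an exon of the Ensembl models used for the gene positions given with the values. The runs are written 5′ to 3′, with capitals for the KLF core CACCC on either strand and, in the Klf2 window, for a match to the MEF2 consensus.
Klf2: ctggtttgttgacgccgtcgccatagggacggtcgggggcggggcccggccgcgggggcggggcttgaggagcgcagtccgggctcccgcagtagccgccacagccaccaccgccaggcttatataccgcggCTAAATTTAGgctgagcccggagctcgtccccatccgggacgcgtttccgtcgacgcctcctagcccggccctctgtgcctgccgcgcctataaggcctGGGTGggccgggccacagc
Klf6: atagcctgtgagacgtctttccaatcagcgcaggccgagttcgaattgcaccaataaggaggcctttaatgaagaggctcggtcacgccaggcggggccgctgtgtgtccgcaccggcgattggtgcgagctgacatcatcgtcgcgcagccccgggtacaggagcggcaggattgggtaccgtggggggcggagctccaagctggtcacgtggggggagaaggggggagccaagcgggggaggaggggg
Klf9: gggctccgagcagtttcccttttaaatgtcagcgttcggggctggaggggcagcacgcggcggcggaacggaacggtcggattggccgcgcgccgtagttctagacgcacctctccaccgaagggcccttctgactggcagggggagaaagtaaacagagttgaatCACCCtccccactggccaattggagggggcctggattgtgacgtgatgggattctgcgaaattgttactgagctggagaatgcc
Klf13: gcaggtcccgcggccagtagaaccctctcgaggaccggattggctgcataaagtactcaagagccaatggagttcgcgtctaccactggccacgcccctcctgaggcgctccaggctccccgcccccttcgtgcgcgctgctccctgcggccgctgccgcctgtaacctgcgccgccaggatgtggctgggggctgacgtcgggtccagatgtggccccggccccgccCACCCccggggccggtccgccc
The KLF core was in 6 of the 7 windows, all but that of Klf6, and in 52.0% of the 32817 mouse windows of the same length. The GC box GGGCGG on either strand was in 5 of the 7, against 32.7% of all windows, and the letters can overlap those of the KLF core, as they do by 1 base in the Klf13 window. The MEF2 consensus was found in the Klf2 window only, 118 bases before the start, against 2.92% of all windows. The TATA box TATAAA was found in 1 window, that of Klf12, against 12.4%, and the CArG box in none of the 7, against 1.47%. A match is a run of letters and not evidence of binding.

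Library depth was 24920434 to 58782055 counts assigned to genes, so 3 counts, taken as the floor, equal 0.0510 to 0.120 CPM, the counts of a gene scaled to the size of its library. The lowest member count in any library was 99, for Klf12 in HE2 replicate 2, far above that floor. Against the stage names, the 7 blood progenitor markers, Runx1 and Spi1 among them, were all higher in HE2 than in HE1, and 5 of 6 endothelial markers were higher in HE1 than in HB. In HB the summed level of the 6 mesoderm markers was 1533 to 1888 CPM against 11.4 to 12.6 in ES. Libraries of HE1, HE2 and HP stood apart from each other within their stage. HE1 replicate 2 carried more ES-marker RNA than replicate 1 (Pou5f1 26.3 against 2.82 CPM, Nanog 11.6 against 0.715) and less endothelial RNA (Cdh5 798 against 1431). It also held more RNA of 1 stroma marker, Col1a1 (671 against 176 CPM). HE2 replicate 1 had more endothelial and less Runx1 RNA than replicate 2 (Cdh5 862 against 412 CPM, Runx1 295 against 519). HP replicate 1 had more stroma, smooth muscle and erythroid RNA than replicate 2 (Col1a1 386 against 187 CPM, Acta2 529 against 249, Hbb-bh1 2622 against 1554). All 6 endothelial markers were higher in replicate 1 of HE1 and of HE2, and so were 9 of the 10 KLF genes in each, with a median log2 difference over the KLF genes of 0.28 in HE1 and 0.67 in HE2 against 0.02 over all genes in both. In ES, HB and HP that median was 0.01, 0.13 and -0.05. The part of the cell mixture in the KLF values was not tested, and in bulk samples fewer cells of a type and less RNA per cell cannot be told apart.

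Over the 5 stages, 9 of the 10 genes differed (adjusted p under 0.05 in the 5-stage test of edgeR), where 66.7% of all 22596 tested genes did. The exception was Klf10, with an adjusted p of 0.105, and the count was 7 to 10 when 1 library was left out. ES held the highest mean of 6 genes (Klf2, Klf5, Klf9, Klf10, Klf12 and Klf16), HE1 of 3 (Klf3, Klf6 and Klf7), HE2 of 1 (Klf13), and HB and HP of none.

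**Figure D1:**
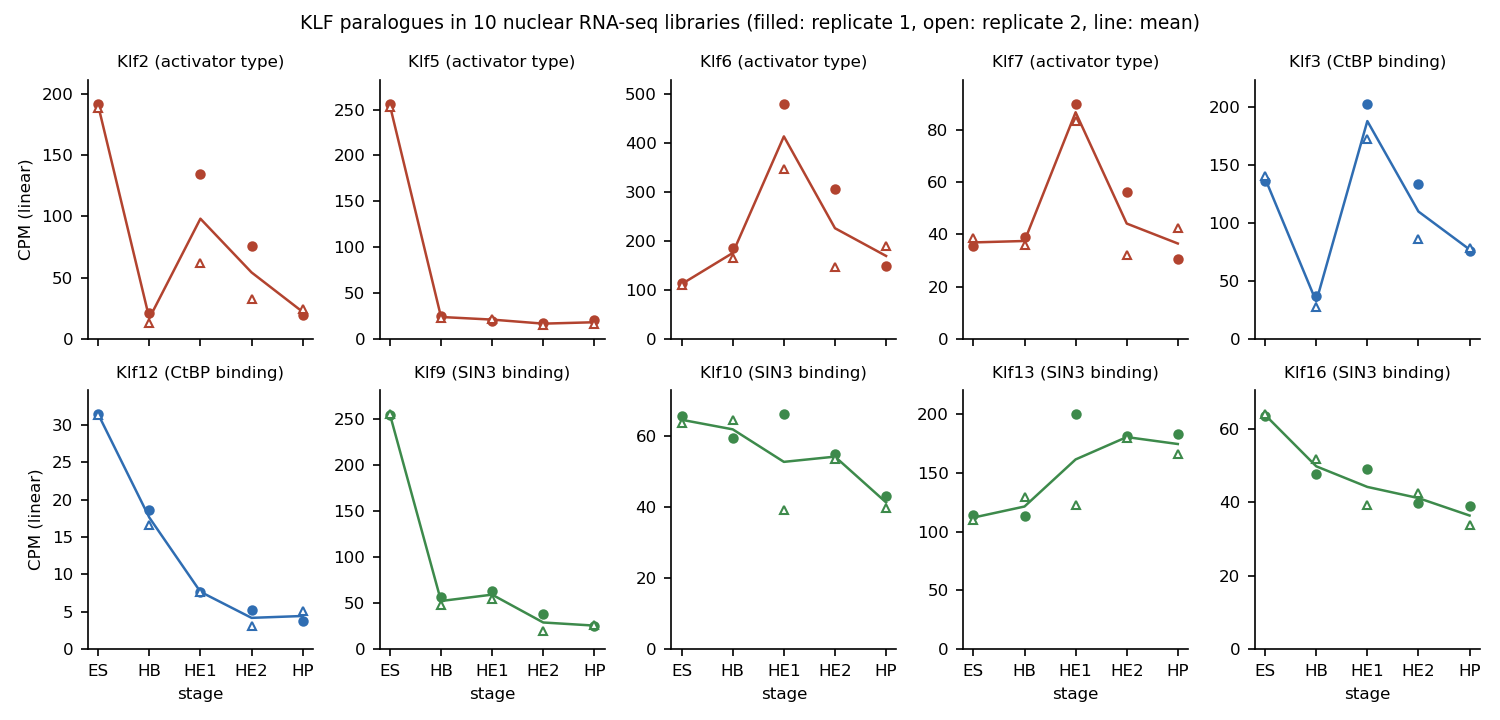
CPM (linear axis from 0) of each of the 10 KLF genes at the 5 stages, with filled circles for replicate 1, open triangles for replicate 2 and a line through the stage means; colours mark the activator-type, CtBP-binding and SIN3-binding genes. Klf2 and Klf3 dip in HB and return in HE1, Klf5 and Klf9 drop after ES, and Klf6 and Klf7 peak in HE1. The replicates of Klf2 and Klf6 lie furthest apart in HE1 and HE2, while those of Klf12 nearly meet in HE1 and those of Klf10 and Klf13 in HE2.

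Among the activator-type genes, Klf2 (chr8:72319033-72321656, plus strand) gave 192 and 189 CPM (ES), 20.9 and 12.6 (HB), 135 and 61.5 (HE1), 76.0 and 32.4 (HE2) and 19.6 and 24.4 (HP). Both ES libraries were above every other library, and those of HB and HP overlapped each other at the bottom. From ES to HB the gene fell by 3.51 on the log2 scale (SE 0.46, adjusted p 0.000188), a fold of 11.4. It rose by 2.55 from HB to HE1 (SE 0.44, adjusted p 0.00193), by 1.84 when HE1 replicate 1 was left out and by 3.01 when replicate 2 was left out. Both HE1 libraries were under the ES libraries, with means of 98.0 ± 51.7 CPM (SD, n = 2) and 190 ± 2.36, a difference that was not tested. The HE1 and HE2 libraries overlapped, with a log2 difference of -0.85 (SE 0.42, adjusted p 0.168). That difference was -0.16 without HE1 replicate 1, -0.36 without HE2 replicate 2 and -1.58 without HE2 replicate 1, where it was called (adjusted p 0.0331). Klf2 fell by 2.16 from HE1 to HP (SE 0.43, adjusted p 0.00584), a call lost without HP replicate 1 (-1.99, adjusted p 0.0644). Without HE1 replicate 1 that difference was -1.45 (adjusted p 0.0252) and without HE1 replicate 2 it was -2.61 (adjusted p 0.00404).

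Klf5 (chr14:99298691-99315036, plus), which with KLF2 supports ES cell self-renewal, gave 257 and 252 CPM (ES), 24.4 and 23.2 (HB), 19.7 and 22.1 (HE1), 17.6 and 15.5 (HE2) and 20.1 and 16.0 (HP). It thus left ES with Klf2 but stayed low, and all 8 later libraries lay between 15.5 and 24.4 CPM. From ES to HB it fell by 3.42 on the log2 scale (SE 0.16, adjusted p 5.51e-07). HE1 replicate 2, in which the ES markers other than Tbx3 stood at a median of 2.55% of their ES level (1.92 to 5.18%), held 22.1 CPM of Klf5, and replicate 1, with a median of 0.299%, held 19.7.

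Klf6 (chr13:5861482-5870394, plus), linked to growth control and the injury response of vessels, was the most abundant activator-type gene after ES. Its values were 113 and 110 CPM (ES), 185 and 165 (HB), 480 and 346 (HE1), 306 and 146 (HE2) and 150 and 189 (HP). HE1 stood above every other library, ES below every other, and HB, HE2 and HP overlapped. The gene rose by 1.24 on the log2 scale from HB to HE1 (SE 0.30, adjusted p 0.0106), a call lost without HE1 replicate 1 (0.94, adjusted p 0.0542), without HB replicate 1 (adjusted p 0.0505) or without HB replicate 2 (adjusted p 0.0861). From HE1 to HP it fell by 1.29 (SE 0.30, adjusted p 0.0114; 0.108 without HP replicate 1). In HB it was 0.65 above ES (SE 0.30, adjusted p 0.107), with no overlap of the libraries.

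Klf7 (chr1:64029447-64122282, minus), best known from the development of neurons, gave 35.4 and 38.4 CPM (ES), 38.8 and 36.1 (HB), 90.0 and 83.3 (HE1), 56.1 and 32.1 (HE2) and 30.5 and 42.4 (HP). HE1 alone stood above the rest, and the other 4 stages overlapped. The rise into HE1 was 1.21 on the log2 scale (SE 0.24, adjusted p 0.00444) and from HE1 to HP the gene fell by 1.25 (SE 0.25, adjusted p 0.00510; 0.0609 without HP replicate 1). Klf7 and Klf6 had their highest stage in common.

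Of the CtBP-binding pair, Klf3 (chr5:64803388-64832901, plus), which represses many erythroid and fat cell genes, gave 137 and 140 CPM (ES), 36.8 and 27.5 (HB), 203 and 173 (HE1), 133 and 86.5 (HE2) and 76.2 and 78.0 (HP). No neighbouring stages in the order of its levels overlapped. It fell by 2.11 on the log2 scale from ES to HB (SE 0.22, adjusted p 4.13e-05) and rose by 2.55 into HE1 (SE 0.22, adjusted p 3.47e-05), and both HE1 libraries were above both ES libraries. From HE1 to HP it fell by 1.29 (SE 0.21, adjusted p 0.00209), the single call of that comparison that held without HP replicate 1 (adjusted p 0.0281). Klf3 shares 404 exon bases with Gm20033, a gene on the opposite strand that had 23 to 122 counts in a library.

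Klf12 (chr14:99870632-100284679, minus), a repressor first studied at the AP-2 alpha gene, differed from Klf3 in direction at the step from HB to HE1: 31.5 and 31.4 CPM (ES), 18.5 and 16.6 (HB), 7.70 and 7.63 (HE1), 5.21 and 3.14 (HE2) and 3.76 and 5.09 (HP). Both libraries of a stage were under those of the stage before as far as HE2, and HE2 overlapped HP. The difference from ES to HB, -0.84 on the log2 scale, passed the p threshold (adjusted p 0.0199) but was under 2-fold, and it missed that threshold when any 1 of the 4 libraries was left out (adjusted p 0.0779 to 0.128). The difference from HE1 to HE2 was -0.87 (SE 0.26, adjusted p 0.0501), with -1.26 without HE2 replicate 1 (adjusted p 0.0114) and -0.54 without HE2 replicate 2 (adjusted p 0.346). It passed the p threshold at under 2-fold with DESeq2 (adjusted p 0.0141), with no filter on low counts (0.0221) and over the matrix genes alone (0.0368). Before that, from HB to HE1 the gene fell by 1.20 (SE 0.25, adjusted p 0.00559). Klf12 was the only member lower in HE1 than in HB among those called. It lies on the same chromosome as Klf5, 555.6 kb away, and both were highest in ES.

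Of the SIN3-binding genes, Klf9 (chr19:23141226-23168134, plus), a target of glucocorticoid and thyroid hormone receptors, gave 254 and 256 CPM (ES), 56.9 and 47.6 (HB), 63.6 and 54.8 (HE1), 37.6 and 20.2 (HE2) and 25.0 and 26.1 (HP). ES stood far above the rest, HB and HE1 overlapped, and so did HE2 and HP. It fell by 2.29 on the log2 scale from ES to HB (SE 0.25, adjusted p 5.55e-05) and fell by 1.03 from HE1 to HE2 (SE 0.24, adjusted p 0.0255), the latter lost without HE2 replicate 2 (adjusted p 0.139) or without HE1 replicate 2 (adjusted p 0.0702), and under 2-fold without HE1 replicate 1. Klf9 also fell by 1.21 from HE1 to HP (SE 0.24, adjusted p 0.00564; 0.0555 without HP replicate 1).

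Klf10 (chr15:38291463-38300706, minus), a gene induced early by TGF-beta, had the smallest span: 65.5 and 63.5 CPM (ES), 59.2 and 64.3 (HB), 66.2 and 39.1 (HE1), 54.8 and 53.5 (HE2) and 43.0 and 39.5 (HP). Its highest and lowest stage means differed by 1.56-fold, and its HE1 libraries were the highest and the lowest of all 10. From ES to HP it fell by 0.64 on the log2 scale (SE 0.21, adjusted p 0.0243), under 2-fold, and past the threshold in none of the fits without 1 of those 4 libraries (adjusted p 0.0715 to 0.125). Klf13 (chr7:63886351-63938915, minus), an activator of the chemokine gene Ccl5 in T cells and a gene of heart development, gave 114 and 110 CPM (ES), 113 and 130 (HB), 200 and 123 (HE1), 182 and 180 (HE2) and 183 and 166 (HP). The HE2 libraries overlapped those of HE1 and of HP, and HE1 replicate 1 lay above both HE2 libraries. From HB to HE1 the difference was 0.41 (SE 0.20, adjusted p 0.145), -0.031 without HE1 replicate 1 and 0.73 without HE1 replicate 2 (adjusted p 0.00627). Klf13 was the only member with its highest mean in HE2, and HP lay above ES by 0.64 on the log2 scale (SE 0.20, adjusted p 0.0223), under 2-fold, and past the threshold in none of the fits without 1 of those 4 libraries (adjusted p 0.0544 to 0.113). Klf16 (chr10:80567124-80577321, minus), a little-studied repressor, gave 63.5 and 64.1 CPM (ES), 47.7 and 51.9 (HB), 49.1 and 39.3 (HE1), 39.8 and 42.5 (HE2) and 39.1 and 33.7 (HP). From ES, its highest stage, to HP, its lowest, it fell by 0.81 on the log2 scale (SE 0.15, adjusted p 0.00139), also under 2-fold.

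Counted by transition, ES to HB called 4 of the 10 genes, all lower (Klf2, Klf3, Klf5 and Klf9), against 28.8% of all genes tested and 17.3% called lower, or 40.4% with no fold threshold. HB to HE1 called 5, with Klf2, Klf3, Klf6 and Klf7 higher and Klf12 lower, against 20.9% of all genes, 12.7% of them higher and 8.19% lower (32.3% with no fold threshold). HE1 to HE2 called Klf9 alone, lower, against 8.65% of all genes and 5.39% called lower, while Klf3 (-0.77 on the log2 scale, adjusted p 0.0391) and Klf7 (-0.97, adjusted p 0.0318) passed the p threshold at less than 2-fold, against 13.2% of genes with no fold threshold. At this step all 7 ES markers, 4 of 5 cardiac and 3 of 6 mesoderm markers were called lower and all 5 erythroid and 7 blood progenitor markers higher, and their part in the KLF values was not tested. That count turned on the HE2 library used: 6 genes (Klf2, Klf3, Klf6, Klf7, Klf9 and Klf12) were called lower without HE2 replicate 1, the library richer in endothelial RNA (log2 differences of -1.58, -1.10, -1.49, -1.41, -1.53 and -1.26 in that order), and 0 without HE2 replicate 2 or without either HE1 library. Over all genes, 8.67% were called lower without HE2 replicate 1 and 0.401% without HE2 replicate 2, so the swing was not limited to the KLF genes. Without HE1 replicate 1 and without HE1 replicate 2 the shares were 12% and 1.1%. Klf3 and Klf7 also missed the p threshold without HE2 replicate 2 or without HE1 replicate 2 (adjusted p 0.0848 to 0.310), and Klf3 without HE1 replicate 1 (0.0728). The comparisons share stages, HB and HE1 each entering 2 of these, so their values are not independent of each other.

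**Figure D2:**
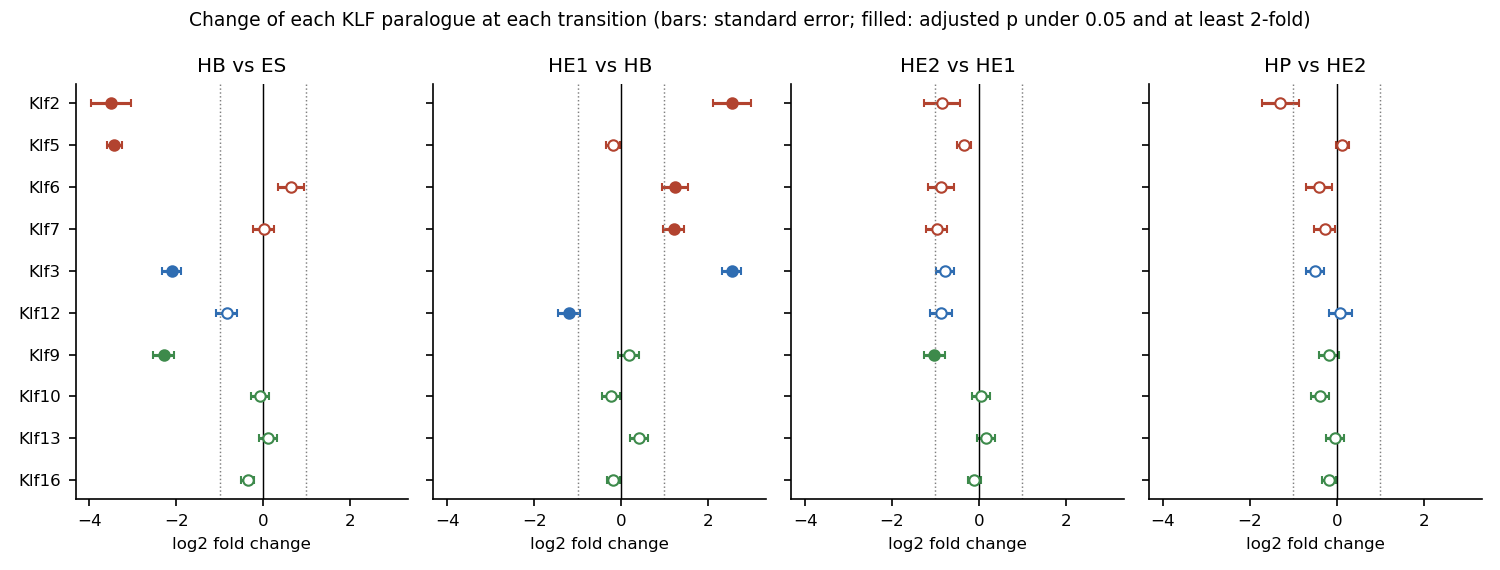
Log2 fold change of each KLF gene (x axis, bars: standard error) at the 4 consecutive transitions, with filled points for genes called at an adjusted p under 0.05 and at least 2-fold and dotted lines at 2-fold. The changes from ES to HB of -3.51 for Klf2 and -3.42 for Klf5 are the widest, Klf2 and Klf3 both rise by 2.55 into HE1, and no point is filled from HE2 to HP.

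HE2 to HP called 0 members by edgeR, as it called 0% of all genes; at an unadjusted p under 0.05 there were 670 genes higher and 1113 lower, and 2 members, Klf2 (-1.30 on the log2 scale, p 0.0114) and Klf3 (-0.51, p 0.0336). DESeq2 called 1 member there, Klf2 (adjusted p 0.047), among 108 genes higher and 193 lower of 22596, and limma-voom called 0 members, with 35 genes higher and 27 lower. Without HE2 replicate 2 edgeR called Klf2 too (-1.79, adjusted p 0.0446), and without HE2 replicate 1 the difference was -0.56 (adjusted p 0.918). Over the whole passage from HE1 to HP, 5 members were called, all lower (Klf2, Klf3, Klf6, Klf7 and Klf9), against 16.5% of genes, 5.35% called higher and 11.2% lower (24.9% with no fold threshold). Markers of other cells moved at the same step: all 7 ES, 6 endothelial and 5 cardiac markers and 5 of 6 mesoderm markers were called lower, and all 7 blood progenitor, 5 erythroid and 3 tested megakaryocyte markers higher. Their part in the KLF values was not tested. From ES to HP, 4 were called, all lower (Klf2, Klf5, Klf9 and Klf12), with log2 differences of -3.11, -3.82, -3.32 and -2.83, against 38.7% of genes, 16.7% called higher and 21.9% lower (51.6% with no fold threshold). The median log2 difference over the 10 members was -0.60 from ES to HB, 0.30 from HB to HE1, -0.81 from HE1 to HE2 and -0.23 from HE2 to HP, beside medians over all genes of 0.00, 0.04, -0.08 and 0.01.

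Levels of different genes were set beside each other per kb of exon, the merged exon length of the Ensembl models (11.2 kb for Klf3, 1.85 kb for Klf2). The order rests on those models, and the part of unspliced nuclear RNA in it was not tested. On this scale Klf2 led in ES with 103 ± 1.28 CPM per kb (SD, n = 2), followed by Klf9 with 53.0 ± 0.198 and Klf5 with 48.9 ± 0.585, and the libraries of these 3 did not overlap. In HB Klf6 led with 39.9 ± 3.26, and Klf2 was at 9.06 ± 3.16, overlapping Klf9 at 10.9 ± 1.36. Klf6 stayed first in HE1 (94.1 ± 21.6), HE2 (51.4 ± 25.8) and HP (38.5 ± 6.31). Klf2 came second in HE1 at 53.1 ± 28.0 without overlap, and second in HE2 at 29.3 ± 16.7, where it overlapped both Klf6 and Klf13. In HP Klf13 was second at 23.2 ± 1.57, above Klf16 at 13.6 ± 1.43 and Klf2 at 11.9 ± 1.85. Klf12 was lowest at every stage, from 4.50 in ES, where it overlapped Klf7 at 4.53, to 0.634 in HP, and in HB it overlapped Klf3 (2.52 and 2.86).

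The 10 genes together summed to 307 and 304 CPM per kb (ES), 128 and 120 (HB), 290 and 195 (HE1), 194 and 123 (HE2) and 114 and 122 (HP). Klf2 made up 33.7% (ES), 7.27% (HB), 21.1% (HE1), 17.8% (HE2) and 10.1% (HP) of this sum. Klf6 took 8.32% in ES and 32.2, 39.1, 31.5 and 32.6% in the later stages. The share of Klf5 dropped from 16.0% in ES to 1.75% in HE1, and that of Klf13 grew from 4.86% in ES to 19.7% in HP. This sum per kb was lower in every later library than in ES, whereas the sum of CPM without division by length was 1255 to 1262 in ES and 949 to 1314 in HE1, 1 library of which lay above both of ES.

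**Figure D3:**
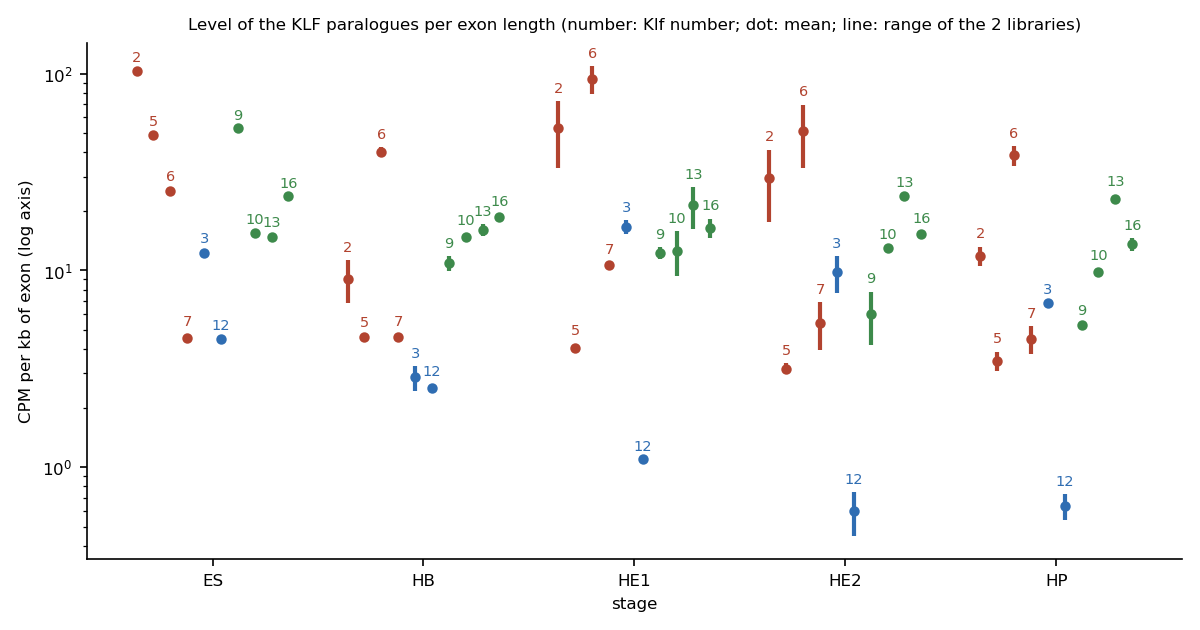
CPM per kb of exon (log axis) of the 10 KLF genes at each stage, with a dot for the mean, a line for the range of the 2 libraries and the number of the gene above it. Klf2 is first in ES at 103, Klf6 is first at every later stage with 94.1 in HE1, and Klf12 is last throughout.

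Paralogues were then compared within their groups by the log2 ratio of their CPM in the same library, a quantity in which the library scale cancels. An exact permutation test over the 945 ways to split 10 libraries into 5 pairs, which cannot give a p under 0.00106, was run on 13 pairs. In 11 of them the ratio differed between the stages at an adjusted p under 0.05. The ratio of Klf3 to Klf12 averaged 2.14 (ES), 0.86 (HB), 4.60 (HE1), 4.71 (HE2) and 4.12 (HP), and the libraries of a stage were at most 0.39 apart (exact permutation p 0.00212, adjusted p 0.00917). That of Klf2 to Klf6 turned over, from 0.77 in ES to -3.43 in HB and -2.16 in HE1 (exact permutation p 0.00423, adjusted p 0.0138), and the HE1 libraries gave -1.84 and -2.49.

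Among the SIN3-binding genes the ratio of Klf10 to Klf13 moved in one direction, -0.80 (ES), -0.97 (HB), -1.62 (HE1), -1.74 (HE2) and -2.08 (HP). The pairs of libraries differed by no more than 0.08, even in HE1, where Klf10 was at 66.2 and 39.1 CPM and Klf13 at 200 and 123. This pair and Klf13 to Klf16 both reached the smallest p the test allows (exact permutation p 0.00106, adjusted p 0.00688). The ratio of Klf9 to Klf13 fell from 1.19 in ES to -2.77 in HP (exact permutation p 0.00847, adjusted p 0.0197). For Klf6 to Klf7 the stage means ranged over 0.71, with libraries of a stage up to 0.36 apart (exact permutation p 0.103, adjusted p 0.111). For Klf10 to Klf16 they ranged over 0.38, less than the widest gap of 0.44 within a stage, which was that of HE1 (exact permutation p 0.285, adjusted p 0.285). Without HE1 replicate 1 or replicate 2 this pair passed the threshold (adjusted p 0.0160 and 0.0255, exact permutation test). For Klf2 to Klf5, with 2.12 in HE1 against -0.55 in HB, the adjusted p of the exact permutation test was 0.0363 and the HE1 libraries were 1.29 apart. That call was lost without either ES library, either HB library, HE2 replicate 2 or HP replicate 2 (adjusted p 0.0525 to 0.0725, exact permutation test).

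**Figure D4:**
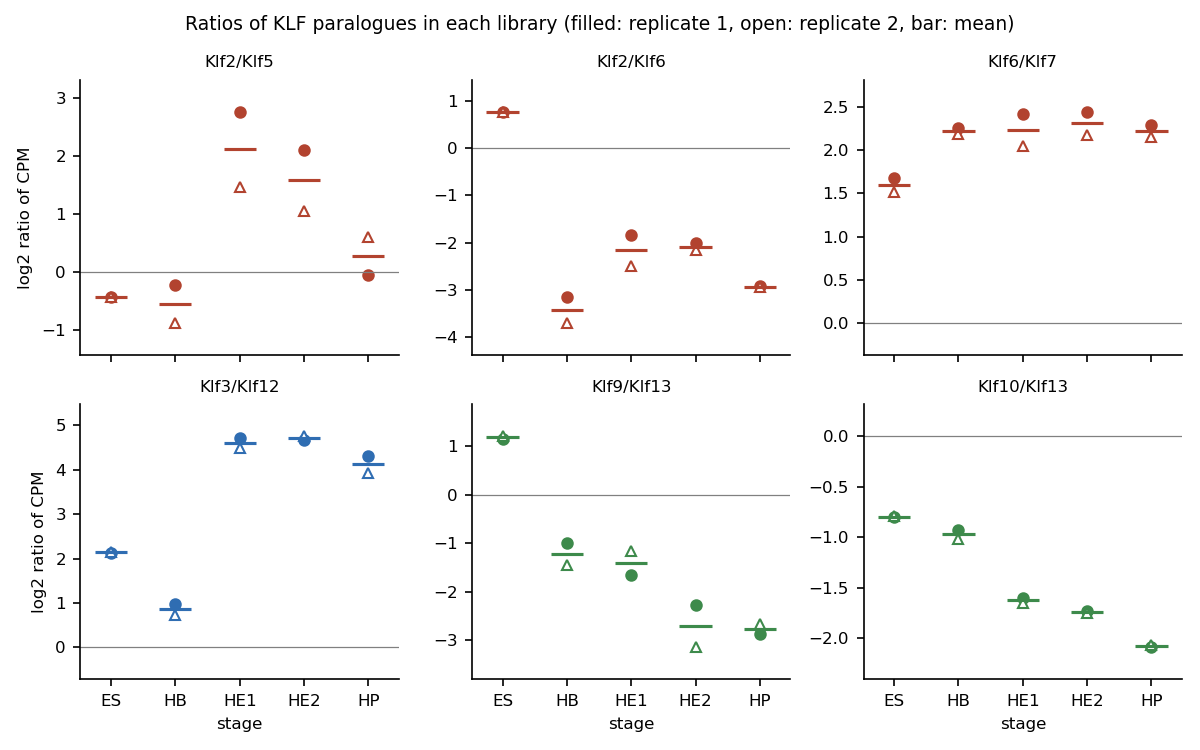
Log2 ratio of the CPM of 2 KLF paralogues in each library (filled: replicate 1, open: replicate 2, bar: stage mean) for 6 of the 13 pairs, with a separate y axis in each panel. Klf3/Klf12 rises from 0.86 in HB to 4.60 in HE1, Klf2/Klf6 crosses 0 after ES, Klf10/Klf13 declines to -2.08 with replicates almost on each other, and the stage means of Klf6/Klf7 keep within 0.71.

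The flow pathway around Klf2 was read from a list of 16 genes. It pools activating inputs with genes of the CCM complex that restrains Klf2 (Krit1, Ccm2, Pdcd10 and Heg1). Its counts therefore do not say whether the input to Klf2 rose or fell. From ES to HB, when Klf2 fell, 6 of the 16 were called higher and 2 lower, against 11.5% and 17.3% of all genes, with a list median of 0.90 on the log2 scale. From HB to HE1, when Klf2 rose, 6 were called higher and 0 lower, against 12.7% and 8.19%. From HE1 to HP, when it fell again, 1 was called higher and 4 lower, against 5.35% and 11.2%. Higher in HE1 were the mechanosensitive channel Piezo1 (1.15 on the log2 scale, SE 0.21, adjusted p 0.00244), the junction sensors Pecam1 (4.10, adjusted p 5.72e-06) and Cdh5 (3.50, adjusted p 0.000181), Mef2a (1.32, adjusted p 0.00149), Mef2c (2.25, adjusted p 0.000365) and Heg1 (1.87, adjusted p 0.00418), the receptor of the CCM complex that restrains Klf2. The ERK5 gene Mapk7 was at 82.3 and 80.2 CPM in HB and 86.4 and 61.7 in HE1, with a difference of -0.13 (SE 0.17, adjusted p 0.570). Klf2 was also high in ES, where Cdh5 was at 0.816 and 0.516 CPM, Mef2c at 0.195 and 0.172, and Mapk7 at 44.4 and 43.1. Piezo1, at 818 and 857 CPM, and Pecam1, at 158 and 164, were high in ES with Klf2. Into HB, Piezo1 fell by 1.43 on the log2 scale (adjusted p 0.000392) and Pecam1 fell by 2.15 (adjusted p 5.60e-05). The 6 that rose at that step, against the direction of Klf2, were Kdr (8.77), Cdh5 (7.15), Mef2c (5.72), the MEKK3 gene Map3k3 (1.59), Mef2a (1.48) and Heg1 (1.10).

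Of 8 genes that KLF2 is known to raise in endothelium, 7 could be tested, and from HB to HE1 4 were called higher and 1, Ptgds, lower, against 12.7% and 8.19% of all genes. Nitric oxide synthase Nos3 rose by 2.32 on the log2 scale (SE 0.73, adjusted p 0.0337), the anticoagulant receptor Thbd by 3.69 (SE 0.53, adjusted p 0.000633), the lipid receptor S1pr1 by 3.19 (SE 0.26, adjusted p 2.59e-05) and the redox enzyme Nqo1 by 3.66 (SE 0.39, adjusted p 0.000107). The 4 genes that KLF2 is known to lower were also all called higher in HE1, at the step where Klf2 and 5 of the 6 endothelial markers rose. The peptide gene Edn1 went from 2.12 and 1.49 CPM in HB to 156 and 98.1 in HE1, the adhesion gene Vcam1 from 0 and 0.169 to 6.73 and 3.17, and Sele and Ccl2 from 0 in both HB libraries to 2.61 and 0.628 and to 4.46 and 6.41. From HE1 to HP, 4 of the 7 raised by KLF2 were called lower and 0 higher, and of the 4 lowered by KLF2, 2 were called lower and 0 higher, against 11.2% of all genes lower and 5.35% higher. The 6 endothelial markers, 2 of them, Cdh5 and Pecam1, also on the flow list, summed to 207 to 235 CPM in HB, 1725 to 2915 in HE1, 957 to 1758 in HE2 and 437 to 489 in HP. Markers of other cells moved at the step from HB to HE1 as well. Smooth muscle markers were called higher in 3 of 4 (summed 13.2 to 17.2 CPM in HB and 622 to 939 in HE1), stroma markers in 2 of 3 tested (98.3 to 100.0 and 355 to 841) and erythroid markers in 5 of 5 (6.71 to 7.47 and 258 to 531). Cardiac markers summed to 21.1 to 22.8 CPM in HB and 22.1 to 86.0 in HE1, and those of macrophages to 12.9 to 14.6 and 25.9 to 50.4. Megakaryocyte markers summed to 11.7 to 13.2 and 68.5 to 97.2 CPM, and endoderm and epithelium markers to 45.6 to 89.7 and 110 to 133. The part of these cell types, endothelium included, in the changes of Klf2 and its targets was not tested.

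**Figure D5:**
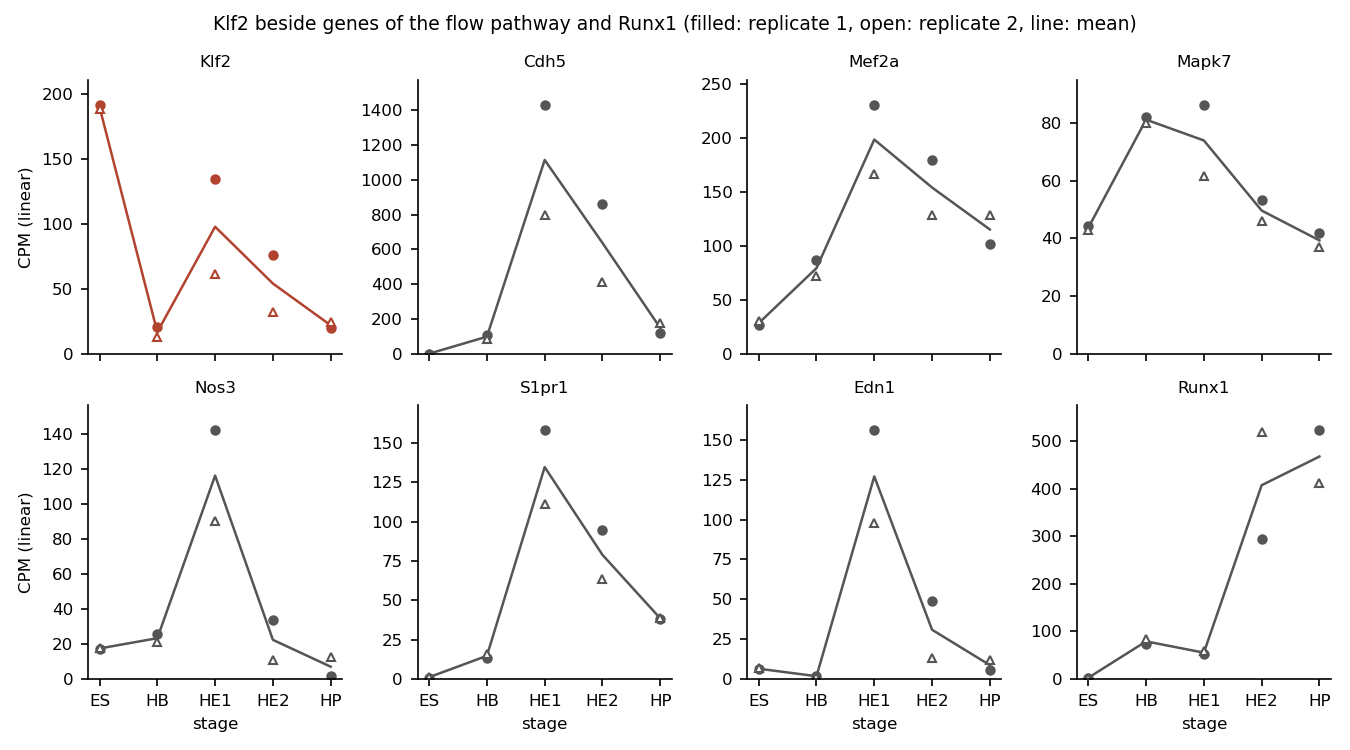
CPM (linear axes from 0) of Klf2, 6 flow pathway or flow target genes and Runx1 at the 5 stages, with filled circles for replicate 1, open triangles for replicate 2 and a line through the means. Klf2, Cdh5, Nos3, S1pr1 and Edn1 peak in HE1 among the differentiated stages and are higher in replicate 1 of HE1 and HE2, Runx1 is higher in replicate 2 of HE2, and Klf2 alone has its highest level in ES.

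Of 7 genes of the corepressors that KLF proteins recruit, the called numbers given here stand against 28.8% of all genes from ES to HB, 20.9% from HB to HE1 and 38.7% from ES to HP. In this list 1 was called lower from ES to HB, Ctbp2 (-1.79 on the log2 scale, SE 0.13, adjusted p 4.63e-06), and 1 from HB to HE1, the SIN3 subunit gene Sap30 (-1.08, SE 0.17, adjusted p 0.00112). The partner gene Ctbp1 was 0.69 higher in HB than in ES (adjusted p 0.00599), under 2-fold. From ES to HP, 3 of the 7 were called: Ctbp2 fell by 2.34 (adjusted p 5.41e-07), Sap30 fell by 1.68 (adjusted p 2.11e-05) and Ctbp1 rose by 1.19 (adjusted p 0.000152). Of 4 ubiquitin ligase genes that act on KLF proteins, Smurf1, whose product targets KLF2, was at 63.9 and 65.5 CPM (HB), 137 and 137 (HE1), 84.2 and 50.0 (HE2) and 46.2 and 49.9 (HP). It rose by 1.08 on the log2 scale into HE1 (adjusted p 0.00330) and fell by 1.03 into HE2 (adjusted p 0.0157). The other 3, Wwp1, Fbxw7 and Itch, were not called at any consecutive transition.

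Of the 7 remaining KLF genes, 6 could be tested, and Klf17 was under the filter. Klf1, the erythroid master gene, went from 0.496 and 0.394 CPM in HB to 42.6 and 28.0 in HP, with rises of 2.88 into HE1 (adjusted p 0.000334) and 2.26 into HE2 (adjusted p 0.00261). None of the 10 members had its highest mean in HP. Klf4, a pluripotency gene, fell by 1.61 from ES to HB (adjusted p 0.00532) and fell by 1.40 from HE1 to HE2 (adjusted p 0.0371), with a difference of -0.10 from HB to HE1 (adjusted p 0.850). Klf15 fell by 3.50 from HB to HE1 (adjusted p 3.94e-05). From ES to HB, 1 of the 6 was called higher and 1 lower, against 11.5% and 17.3% of all genes. The higher one was Klf14 (2.28, adjusted p 0.00515), at 0.213 and 0.143 CPM in ES and 0.893 and 0.901 in HB. Klf11 rose by 0.90 at that step (adjusted p 0.0156), under 2-fold. Among 9 SP genes, which share the KLF type of zinc finger, Sp5 and Sp8 rose into HB (3.97 and 4.37 above ES on the log2 scale, adjusted p 5.25e-05 and 0.000310). Into HE1, 1 SP gene was called higher and 2 lower, against 12.7% and 8.19% of all genes. Sp5 fell by 5.33 (adjusted p 3.58e-05) and Sp8 fell by 4.94 (adjusted p 0.000403). Sp9 rose by 4.74 (adjusted p 0.000969), from 0.0661 and 0.0845 CPM in HB to 1.68 and 2.54 in HE1. HB, where Sp5 and Sp8 were highest, held the lowest means of Klf2 and Klf3.

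Further lists covered inputs known for single members. Of 12 immediate-early genes, 6 were called higher from ES to HB and 0 lower, against 11.5% and 17.3% of all genes, with Jun up by 3.56 on the log2 scale. At that step none of the 10 KLF members was called higher. Of 5 glucocorticoid response genes, chosen because Klf9 is a target of that receptor, 2 were called higher and 0 lower from ES to HB, against the same shares, while Klf9 fell. Fkbp5 of that list was lower with Klf9 but under 2-fold (-0.90, adjusted p 0.00114), at 120 and 113 CPM in ES and 63.6 and 60.7 in HB.

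The genes whose log2 CPM followed each member most closely over the 10 libraries were taken from 11349 genes of the matrix, as a description with no test, and the points share libraries and stages. Klf2 was followed by Sh3d19, Arid5b and Eda2r (Pearson's r 0.98 each), and Arid5b showed the same dip, from 247 CPM in ES to 17.7 in HB and 126 in HE1. Klf3 was followed by Samd12, Manf and Plec, and Klf5 by Ccdc73, Rbpj and Fzd5. For Klf6 the first was Heg1 (r 0.98), which is also on the flow list, before Cdkl1 and Nod1, and for Klf7 it was Dock4 (r 0.99), before Mamstr and Polk. Klf9 was followed by Slc1a5, Rnf24 and Adgrb1, Klf10 by Gatad2b, Slc31a1 and Spin1, Klf12 by Ptprs, Adam23 and Mapk8ip2, Klf13 by Hif1a, Tm9sf3 and Rab35, and Klf16 by Phf13, Pex14 and Arxes1. With ranks in place of values only 4 of these 30 genes were kept. Between members the closest were Klf5 and Klf9 (r 0.94) and Klf6 and Klf7 (r 0.91), and the most opposed were Klf12 and Klf13 (r -0.85).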

How the data were processed

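The authors depleted residual rRNA reads, trimmed with Trimmomatic, aligned to mm10 with HISAT2 2.2.1 and counted with featureCounts 2.0.1 over Ensembl release 102 exons, and deposited raw counts per gene for each library. The authors also deposited a stage-mean matrix labelled as CPM, treated here as a score because its values are pooled; it supplied gene names and the members, and its levels appear as an alternative only. The library kit keeps strand.

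Counts of 55487 genes were filtered with filterByExpr (22596 tested), scaled by TMM and fitted over all 10 libraries with edgeR 4.0.16 (glmQLFit, stage only, 5 residual degrees of freedom), and p-values were adjusted by Benjamini-Hochberg over all tested genes. A gene was called at an adjusted p under 0.05 and at least 2-fold. Log2 CPM used a prior count of 2. Replicate libraries differed beyond sampling noise in every stage. Alternatives were DESeq2 1.42.0, limma-voom (limma 3.58.1), other scaling, filters and thresholds, a replicate block and leaving out each library. The scripts were tested on simulated data.

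Named were the 10 members, any gene of the lists, and for each member the 3 most correlated genes with at least 9 CPM in a stage. The members and lists were chosen with earlier results of these data known. Counts of 3 were the floor, which covers counting error only, and standard errors and SDs include the spread between libraries. Of the gene lists examined, 1 is not reported here.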

Additional observations from a re-analysis of the deposited data

How the results depend on the processing

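Counts of members called stayed within 1.5 times of those reported except as follows. At 4-fold the counts were 2 from HB to HE1, 0 from HE1 to HE2 and 1 from HE1 to HP; with no fold threshold they were 3 from HE1 to HE2 and 8 from ES to HP. From HE1 to HE2 (1 reported), limma-voom, total counts in place of TMM and the genes of the matrix alone each gave 2, the 4 libraries alone gave 0, and leaving out 1 library gave 0 to 6. From HE2 to HP (0 reported), DESeq2 and no filter on low counts gave 1, and leaving out 1 library gave 0 to 1. From HE1 to HP (5 reported), leaving out 1 library gave 1 to 5. Of the 30 closest genes, 4 remained by Spearman's rho and 6 over stage means. Klf13 from HB to HE1 changed sign when 1 library was left out (-0.031 without HE1 replicate 1 and 0.73 without HE1 replicate 2). The causes were not tested beyond the smaller sample of those fits.

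Of 37 log2 differences at least 2 standard errors from 0, no alternative other than leaving out a library reversed any. Stage levels by the authors' means were 0.970 to 1.12 times those given here, and those by total counts 0.958 to 1.05 times. For Klf2 in ES, at 103 ± 1.28 CPM per kb here, these gave 110 and 98.7, so the SDs do not cover the choice of scaling. The replicate numbers did not line up as pairs from stage to stage (correlations of replicate differences between stages -0.32 to 0.21). Signs were mixed among HB, HE1, HE2 and HP, and a pairing in another order of the numbers was not tested. With a block on the numbers as given, the counts were 4, 5, 1 and 0 at the consecutive transitions, 5 from HE1 to HP and 4 from ES to HP. This block cannot stand for a pairing in another order. With it 11 pairs of paralogues passed, but the 945 splits were not restricted to the block, so that number does not test it. Leaving out an HE2 library moved values on both sides of that stage: from HE2 to HP, Klf6 ranged from -0.85 to 0.21 and Klf9 from -0.56 to 0.34.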
